A study of Mus musculus with 188 samples.

Results

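The latest decile (10%) of the autosomal replication schedule comprised 4512 bins of 50 kb, out of 45112 autosomal bins that could be ranked. Together they span 225.6 Mb of the mouse genome (mm10). Bins were ranked by the mean of 2 averages, the mean smoothed copy number score of the haploid cells and that of the diploid cells, from the highest (earliest) to the lowest (latest), and the bins between 90% and 100% of the ranking were taken. Bins were ranked only if 50% or more of the cells in both lines had a score. The scores that placed a bin in the latest decile, and the replication states derived from the same reads, therefore describe it and are given without a test. Replication of such a bin in a cell that had replicated less than 50% of its autosomal bins is called precocious here.

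The study sequenced single nuclei of mouse embryonic stem cells (mESCs) to read replication timing from DNA copy number, since replicated DNA is present at a higher copy number than unreplicated DNA of the same cell. H129-2 is a haploid line of strain 129, and F121-9 is a diploid hybrid (cas/129) whose homologs can be separated by sequence variants between 129 and Castaneus. Both lines were grown in N2B27 medium with 2i and LIF, stained with DAPI, sorted on DNA content, amplified with the SeqPlex kit and sequenced as single-end reads, of 50 bp per the labels, although the study's methods mention longer reads for a few cells. The analysis used 75 haploid and 63 diploid S-phase cells, 138 in all. Each line carries the well names of 1 plate and no separate cultures are named, so line and plate cannot be told apart, each line counts as 1 sample, and every SD below is the spread over cells. The deposited tables hold no read numbers, so the depth of a cell is unknown.

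DNA that replicates at the end of S phase lies mainly in compact, gene-poor and AT-rich chromatin. Much of it sits at the nuclear lamina, and in stem cells it holds many genes that are used only in differentiated tissues. Such regions usually have few efficient replication origins and are often copied from origins that fire late, or by forks that enter from earlier neighbours.

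To show what such DNA looks like, the middle 300 bases of 3 bins follow, read from the plus strand of GRCm38, the reference assembly of mm10. Capitals mark CG dinucleotides.
The first comes from the bin of the stretch with the highest precocious percentage that was replicated in the most early cells (chr6:45124851-45125150), and lies within Cntnap2.
Precocious bin: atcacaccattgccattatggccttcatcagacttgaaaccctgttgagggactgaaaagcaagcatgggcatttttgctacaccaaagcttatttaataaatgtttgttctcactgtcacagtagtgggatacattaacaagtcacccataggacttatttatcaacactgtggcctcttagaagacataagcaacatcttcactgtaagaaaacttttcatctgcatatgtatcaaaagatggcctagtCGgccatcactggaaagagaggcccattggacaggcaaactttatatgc
The second belongs to the bin of the latest decile replicated in the most cells below 70% replicated (chr5:3024851-3025150), with no gene annotated at the window.
Most often replicated bin below 70%: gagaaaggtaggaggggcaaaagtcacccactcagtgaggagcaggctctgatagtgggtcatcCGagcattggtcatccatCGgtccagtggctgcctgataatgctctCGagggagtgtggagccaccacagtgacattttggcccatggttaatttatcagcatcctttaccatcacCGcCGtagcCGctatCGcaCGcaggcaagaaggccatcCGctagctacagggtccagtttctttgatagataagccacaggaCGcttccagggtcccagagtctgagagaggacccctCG
The third is from the earliest bin of the schedule, shown for contrast (chr5:111274851-111275150), and lies within Ttc28.
Earliest bin: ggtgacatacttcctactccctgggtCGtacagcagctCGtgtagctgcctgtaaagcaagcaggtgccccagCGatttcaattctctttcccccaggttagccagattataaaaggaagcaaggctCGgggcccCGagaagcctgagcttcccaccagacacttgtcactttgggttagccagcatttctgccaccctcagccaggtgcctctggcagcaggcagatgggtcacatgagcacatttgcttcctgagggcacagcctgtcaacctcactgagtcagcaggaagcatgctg
The precocious Cntnap2 bin had a GC content of 34.5% and 3.48 CG dinucleotides per kb over its 50 kb, and was the poorest of the 3 in both. The second bin had 41.6% and 7.90, and the earliest bin 52.3% and 16.3. The printed windows differ from this: they had 40.7%, 55% and 55.7% GC, with 1, 11 and 5 CG dinucleotides. The second bin is not typical, since 98.1% of latest-decile bins had a GC content below 40%.

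The schedule scores of the latest decile ran from -1.16 to -0.890, with a median of -0.964, while all ranked bins spanned -1.16 to 1.02. At the limit, the last bin outside (chr5:10100001-10150000) and the first bin inside (chr4:65950001-66000000) both scored -0.890. The first was replicated in 6 and the second in 3 of the 112 cells with less than 70% of autosomal bins replicated. Ranking by haploid cells alone gave a latest decile that held 3872 of these bins (85.8%), and ranking by diploid cells alone one that held 3527 (78.2%). Both rankings placed 2893 bins (64.1%) in the latest decile. The cells nearest the end of S phase helped make the ranking, so their states follow it in part by construction. The 11 haploid cells with at least 80% of autosomal bins replicated had replicated 99.3% of the earliest decile, 56.1% of the decile before the latest and 25.9% of the latest decile.

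The latest decile formed 503 stretches of neighbouring bins. The median stretch held 5 bins (250 kb) and the longest 53 bins (2.65 Mb), and 95 stretches were single bins. The 177 stretches of at least 10 bins held 3389 bins, or 75.1% of the total. Chromosomes contributed unequally: the latest decile took up 16.95% of the ranked bins of chromosome 14 and 14.5% of chromosome 5, but 3.49% of chromosome 9 and 3.87% of chromosome 19.

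The bins were poor in GC and in genes, features that the ranking did not use. Mean GC content was 37.1%, against 38.03% in the decile before and 42.5% in all other ranked bins, and the latest decile was lower than the other bins of the same chromosome on 19 of 19 autosomes, with differences from -6.66 to -4.01 percentage points. Protein-coding genes started at 1.07 per Mb, compared with 2.53 in the decile before and 9.41 in the other bins. Genes covered 15.8% of the sequence, compared with 45.3% in the other bins. Repeat-masked bases made up 41.1%, against 31.7% in the other bins. G-quadruplex motifs (4 runs of at least 3 G separated by 1 to 7 bases, on either strand) occurred at 192 per Mb, against 188 in the decile before and 300.1 in the earliest decile. The authors corrected coverage with G1 and G2 cells, and any effect of base composition that remains in the scores was not tested.

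**Figure D1:**
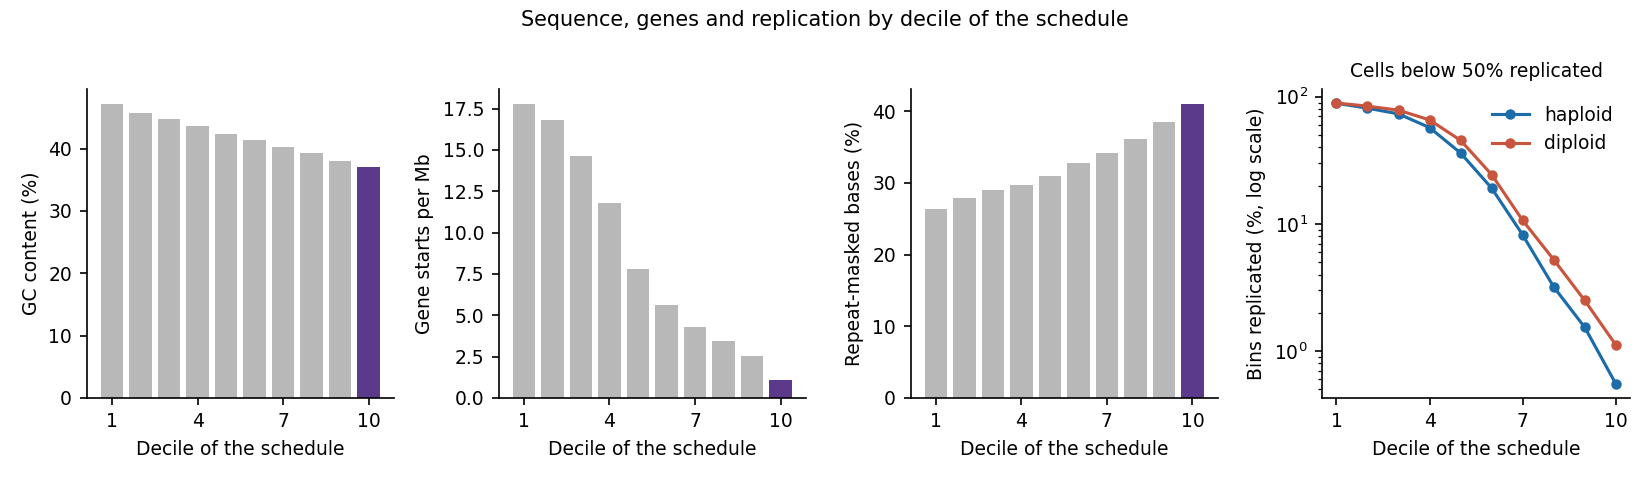
Mean GC content, protein-coding gene starts per Mb and repeat-masked bases in each decile of the schedule, from 1 (earliest) to 10 (latest, purple), and at the right the percentage of bins replicated in cells below 50% replicated, on a log axis, for 17 haploid (blue) and 14 diploid (red) cells. GC content falls from 47.2% to 37.1% and gene starts from 17.8 to 1.07 per Mb, and the bins replicated before mid S phase fall to 0.554% in haploid and 1.12% in diploid cells.

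Few genes began in these bins, and receptor and adhesion families were among them. Of 19345 protein-coding genes whose start lay in a ranked bin, 242 (1.25%) started in the latest decile. For vomeronasal receptors, which detect pheromones, it was 25 of 202 (12.4%), mostly Vmn2r genes, and for olfactory receptors 24 of 1058 (2.27%). Protocadherins and cadherins, adhesion proteins of neurons and other cells, had 10 of 94 (10.6%), among them Cdh10, Cdh12, Pcdh7 and Pcdh9. Glutamate and GABA receptor subunits had 4 of 42, with Gabra2, Gabrg1 and Grm7 among them. None of 87 ribosomal protein genes, 18 core pluripotency genes such as Pou5f1 and Nanog, or 42 defensin genes started there. Paralogs in such clusters are positioned by annotation only, and these counts carry no test. Clustered paralogs are neighbours, so a count of genes is not a count of loci. The stretches chr7:85800001-86650000 and chr17:19200001-20600000, both with Vmn2r genes, held 18 and 16 protein-coding gene starts. The 202 vomeronasal receptors were those of 329 annotated that started in a ranked bin, and their median rank was 62.1%.

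Very large genes, many of them neuronal and some known as common fragile sites, were a further list. Of 29 such genes whose start lay in a ranked bin, 8 (27.6%) started in the latest decile, against 1.25% of all protein-coding genes. Of all 30, 18 overlapped the latest decile and 9 had at least 50% of their ranked bins in it. A gene that spans many bins is more likely to overlap than a short one, and genes of like length were not compared. Pcdh9, a protocadherin, lay in it entirely (16 of 16 bins). Ctnna2, a catenin of neurons, had 17 of 23 bins in it, Ptprd, a receptor phosphatase of synapses, 30 of 45, and Cntnap2, a neurexin-like adhesion protein, 27 of 43. The fragile site genes Wwox and Fhit had no bin in it.

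The next question was how rarely these bins were replicated early, and in which cells. Of the 138 cells, 31 had replicated less than 50% of their autosomal bins, 17 haploid and 14 diploid. In these the latest decile was replicated at 0.554% ± 0.637 per haploid cell (SD, n = 17), with a lowest value of 0, a median of 0.355% and a highest of 2.64%. The diploid cells, with the states of their homologs averaged, had 1.12% ± 1.33 (SD, n = 14), with a lowest value of 0, a median of 0.648% and a highest of 4.19%. The ranges overlapped over most of their length. The same cells had replicated 1.54% (haploid) and 2.50% (diploid) of the decile before.

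Each cell contributed to the ranking in which it was read. Leaving each cell out of its own ranking gave 0.591% ± 0.664 in haploid and 1.18% ± 1.37 in diploid cells. Bins chosen by 1 line and read in the other used no cell on both sides: the latest decile of the diploid cells was replicated at 0.953% ± 0.691 (SD, n = 17) in early haploid cells, and that of the haploid cells at 1.74% ± 1.63 (SD, n = 14) in early diploid cells.

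Replication of the latest decile stayed low until late S phase and then rose. Haploid cells between 50% and 60% replicated had replicated 1.20% ± 0.872 of it (SD, n = 19), those between 60% and 70% 2.80% ± 1.53 (n = 14), and those between 70% and 80% 8.13% ± 1.91 (n = 14). At 80% and above it was 25.9% ± 12.4 (SD, n = 11), with a lowest value of 9.09%, a median of 28.5% and a highest of 49.8%. No cell had replicated 50% of the latest decile, so the progress at which that level is reached has no value here. Diploid cells had 1.10% ± 1.32 between 50% and 60% (SD, n = 35) and 1.77% ± 1.51 between 60% and 70% (n = 13), and 1 diploid cell, A11 at 79.1%, had 20.5%.

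In the haploid line the lowest mean was not that of the earliest cells. Haploid cells below 30% replicated had 0.968% ± 0.935 (SD, n = 6), against 0.222% ± 0.167 between 30% and 40% (n = 5) and 0.417% ± 0.251 between 40% and 50% (n = 6). Cell A3, at 27.8%, and cell G8, at 24.6%, were highest among them, with 2.64% and 1.35%. The mean below 30% fell to 0.634% ± 0.506 (n = 5) without A3 and to 0.454% ± 0.355 (n = 4) without both. The 2 diploid cells below 30% had a mean of 0.515%, against 2.50% between 30% and 40% (n = 2) and 0.965% ± 1.35 between 40% and 50% (n = 10). G8 stood apart from its plate row, whose other 7 cells lay between 78.6% and 88.6%. Without G8 the haploid mean was 0.504% ± 0.622 (SD, n = 16). The profiles of these earliest cells also followed the schedule less closely over the other bins, with r rising with progress below 50% (Spearman's rho 0.94 over 17 haploid cells), and the part of this in the values was not tested.

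**Figure D2:**
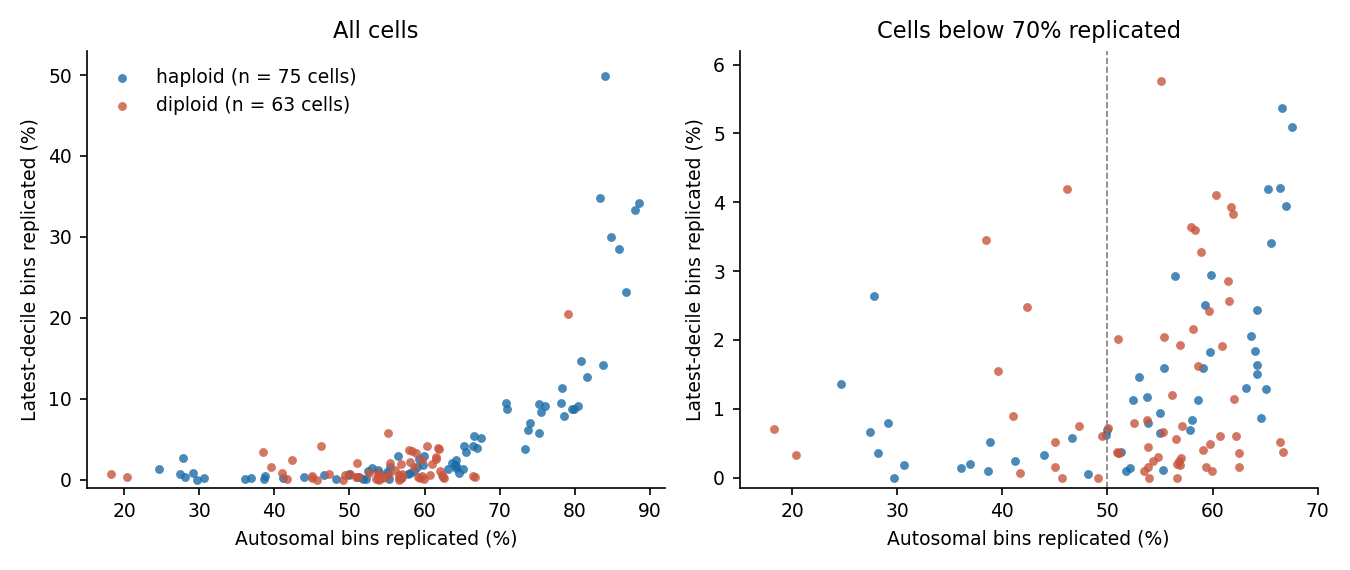
Percentage of latest-decile bins replicated in each cell (y) against the percentage of all ranked autosomal bins replicated (x), for all 138 cells (left) and for the 112 cells below 70% (right, with a dashed line at 50%). Each point is 1 cell, blue for haploid and red for diploid. All 31 cells below 50% lie at or under 4.19%, and the haploid cells rise to between 9.09% and 49.8% at 80% and above.

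Between 40% and 60% replicated, where both lines had many cells, the haploid cells had replicated 1.02% ± 0.837 of the latest decile (SD, n = 25) and the diploid cells 1.07% ± 1.31 (SD, n = 45). The difference, -0.05 percentage points, was far smaller than the SD over cells. In narrower windows the order of the lines changed: between 45% and 50% the means were 0.482% (n = 4) in haploid and 0.949% (n = 6) in diploid cells, and between 50% and 55% they were 0.726% ± 0.507 (n = 8) and 0.515% ± 0.521 (n = 13). Ranking the bins by diploid cells alone moved the difference to 1.33 points, and counting a smoothed score above 0 as replicated moved it to 1.76.

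Precocious replication was concentrated in a few cells. Of the 31 early cells, 25 had replicated less than 1% of the latest decile and 3 had replicated none. The 5 highest were diploid H8 (4.19%), A5 (3.45%), A6 (2.48%) and F8 (1.55%) and haploid A3 (2.64%). Profile contrast, the median score of a cell's replicated bins outside the latest decile minus that of its unreplicated bins inside, ran from 1.02 to 1.65 in early diploid cells (median 1.45) and from 1.23 to 1.74 in early haploid cells (median 1.44). It was below the median of the line in A6 (1.02), A5 (1.16), H8 (1.29) and A3 (1.28), and 1.46 in F8. The part of contrast in these values was not tested. Omitting H8 and A3 left 0.424% ± 0.354 (SD, n = 16) in haploid and 0.884% ± 1.04 (n = 13) in diploid cells.

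Within a cell the replicated bins lay in a handful of runs. Counts of bins and runs take a diploid bin replicated on 1 homolog in full, whereas the percentage replicated in a cell averages the homologs. Diploid H8, at 46.2% progress, had 266 bins in 22 runs over 12 chromosomes, of which 93 were on chromosome 6. Of these 266 bins, 154 were replicated on 1 homolog only. Diploid A5, at 38.4%, had 215 bins in 18 runs, 66 of them on chromosome 3. Of these 215 bins, 119 were replicated on 1 homolog only. Diploid A6, at 42.3%, had 112 bins in 18 runs, with 36 on chromosome 8. Diploid F8, at 39.6%, had 70 bins in 8 runs, 26 of them on chromosome 14, and haploid A3 had 119 bins in 12 runs, 35 of them on the same chromosome.

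To compare cells of similar progress, each was set against the median of the 10 cells of its line nearest in progress. The largest excess was in late haploid cells: G5, at 84.0%, had 49.8% of the latest decile against 18.9% in its neighbours, and F7, at 83.3%, had 34.8% against 14.4%. Their profile contrast, 0.989 and 0.980, was the lowest of all 75 haploid cells, the next being 1.14, and its part in the excess was not tested. G2, G9 and B2 followed, with 8.32, 7.44 and 4.26 points more than their neighbours, but all 10 neighbours of G2 and 9 of 10 of G9 were less advanced than the cell itself. In the diploid line A11 exceeded its neighbours by 19.6 points, but all other diploid cells lay at or below 66.7% progress, so it had no near neighbour. F11, H8, G7 and A5 followed, with 5.26, 3.74, 2.85 and 2.81 points.

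Cells that departed from the order elsewhere in the genome also had more of the latest decile replicated at mid S phase. For each cell the score over ranked bins outside the latest decile was correlated with the schedule of all other cells. In cells between 50% and 70% replicated, this r ran from 0.703 to 0.851 in haploid and from 0.603 to 0.922 in diploid cells. Across these cells it had a rank correlation with the percentage of the latest decile replicated of -0.69 (33 haploid cells) and -0.78 (48 diploid cells). In cells below 50% the corresponding values were closer to 0, at -0.34 (17 haploid cells) and -0.57 (14 diploid cells). Both measures come from the same reads of a cell, and r also fell with progress (rho -0.63 in haploid and -0.40 in diploid cells), so this is a description only. Over the bins of the whole ranking, r was 0.372 in G5 and 0.480 in A11, while the other 10 haploid cells at 80% and above ran from 0.526 to 0.696 with a median of 0.575.

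Hardly any bin of the latest decile was replicated repeatedly. In the 31 early cells, 3371 bins (74.7%) were replicated in none, 993 in 1, 128 in 2 and 20 in 3 cells. A diploid bin replicated on 1 homolog counted as replicated in that cell, here and in the counts below 70% replicated. In all, 1141 bins (25.3%) were replicated in at least 1 early cell, while over all ranked bins this was 83.6%. No bin of the latest decile was replicated in at least 20% of these cells, against 54.6% of all ranked bins, a gap that the ranking itself creates. In the decile before, 53.8% of bins were replicated in none and 0.953% in 4 or more.

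With all 112 cells below 70% replicated, 3593 bins (79.6%) were replicated in at least 1 cell, beside 97.8% of all ranked bins. A single bin stood out, chr5:3000001-3050000, the first bin of its chromosome after the assembly gap, which 27 cells had replicated, 16 haploid and 11 diploid. Its schedule score was -0.890, just inside the limit. The next were 3 neighbouring bins at chr17:61800001-61950000, with 9 or 10 cells each, and chr5:60300001-60350000 with 9. All other bins were replicated in at most 8 of these cells.

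**Figure D3:**
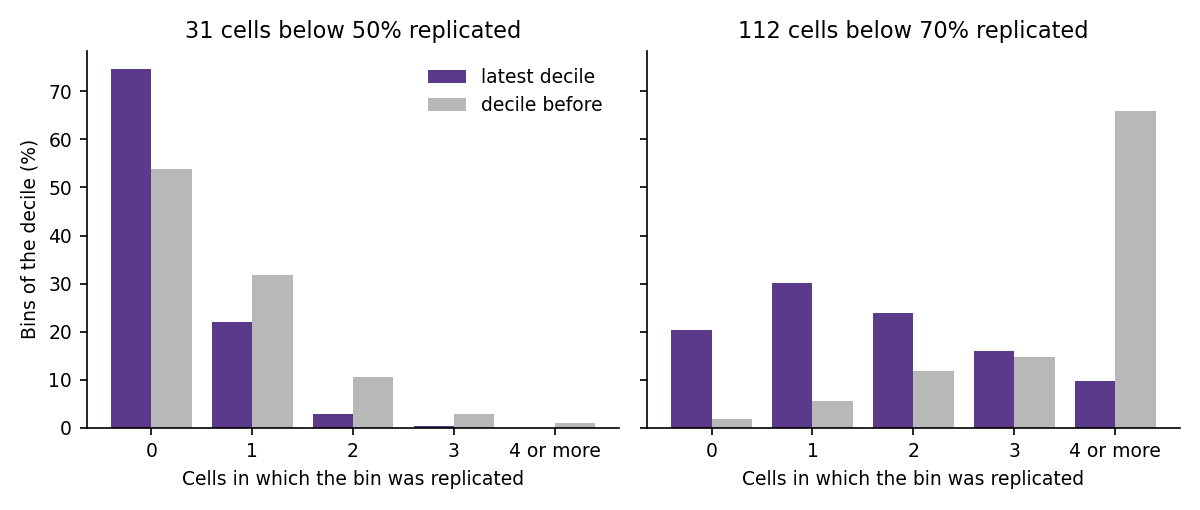
Percentage of the bins of the latest decile (purple) and of the decile before (grey) that were replicated in 0, 1, 2, 3 or 4 and more cells, among 31 cells below 50% (left) and 112 cells below 70% replicated (right). Diploid bins replicated on 1 homolog are counted as replicated. In the early cells 74.7% of the latest decile was replicated in no cell, and below 70% replicated 9.77% of it was replicated in 4 or more cells, against 65.99% of the decile before.

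Bins that were ever precocious resembled the others in sequence. The 1141 bins replicated in at least 1 early cell had a GC content of 37.2% and the 3371 others 37.1%. Gene starts were at 1.40 and 0.961 per Mb and genes covered 18.4% and 14.97%. The first set was also ranked slightly earlier, with a median rank of 93.9% against 95.3%. Rank within the latest decile went with replication at every stage: bins ranked 90% to 92% were replicated at 0.899% in early haploid and 1.54% in early diploid cells, and those ranked 98% to 100% at 0.430% and 0.732%. In haploid cells at 80% and above the same bins had 36.8% and 14.8%. Rank and state come from the same profiles. The gradient, and the earlier rank of the bins that were ever precocious, therefore follow in part by construction and are a description.

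The 5 latest stretches of at least 10 bins were replicated in no early cell, as were 95 of all 177 such stretches. Early cells helped set the ranking that chose the 5, so this is a description. The 5 were chr5:57200001-58700000, which holds Pcdh7, a protocadherin, chr7:60800001-61350000, chr17:91550001-92150000, chr5:79850001-81350000, which holds the start of Adgrl3, a latrophilin adhesion receptor, and chr1:147650001-148650000. The stretches on chromosomes 7, 17 and 1 overlap no protein-coding gene. In haploid cells at 80% and above, the chromosome 7 stretch was replicated at 0.826% and the Pcdh7 stretch at 9.70%, while the chromosome 17 stretch had reached 35.6%. The chromosome 7 stretch was the only one of 177 that no cell below 70% had begun to replicate.

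The longest stretches varied more. The longest, chr3:47150001-49800000, whose only protein-coding gene is Pcdh18, was replicated at 2.04% over early cells, in 4 diploid cells. The stretch chr4:36100001-38550000, with part of the neuronal membrane protein gene Lingo2, had 0.987%, all of it in diploid A5, and chr11:37700001-39950000, without a protein-coding gene, had 1.43% in 3 haploid cells. The stretch with Pcdh20, a protocadherin (chr14:88400001-90750000) had 0 in early cells but 2.37% over cells below 70% replicated.

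Among the 177 stretches of at least 10 bins, precocious replication was highest at the start of Cntnap2 on chromosome 6. The stretch chr6:44700001-45450000 is 15 bins long, holds the first 17.4% of the gene, and had a mean rank of 97.6%. It was replicated at 7.96% over the 31 early cells, through 15 of its bins in diploid H8, 9 in haploid A3, 9 in diploid E10 and 4 in diploid A6. Over all 112 cells below 70% replicated it was 2.74%, with haploid F5 the only further cell. Profile contrast was 1.29 in H8, 1.28 in A3, 1.33 in E10 and 1.02 in A6. Each was below the median of the early cells of its line, and the part of contrast was not tested. The next stretch within the gene, chr6:45500001-46450000, had 3.74%, from the same 4 cells. In both stretches the replicated states of the diploid cells were of both homologs. The relative score defined further below is 0 for unreplicated latest-decile bins and 1 for replicated bins elsewhere. On it, the replicated bins of the first stretch had medians of 0.522 in H8, 0.516 in A3, 0.597 in E10 and 0.928 in A6. These 2 stretches lie 50 kb apart and can share a replicated run, so they are not separate events.

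The other leading stretches drew on other cells. At chr6:20550001-21100000, without a protein-coding gene, 4.99% was reached through haploid B5 (9 of 11 bins) and diploid F8 (8 of 11). Within Csmd1, which encodes a large membrane protein with complement control domains, chr8:16400001-17250000 had 4.46%, with all 17 bins replicated in diploid E10 and 6 in diploid A2, the least advanced cell at 18.2%. At chr8:29250001-30150000, 4.39% came from F8 (16 of 18 bins), G4 (9) and A6 (4). The G4 states were of 1 homolog only, with a median relative score of -0.158. F8 and A6 had 0.539 and 0.583 there. At chr6:20550001-21100000 the medians were 0.505 in B5 and 0.535 in F8, and in the Csmd1 stretch 0.682 in E10 and 1.04 in A2.

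**Figure D4:**
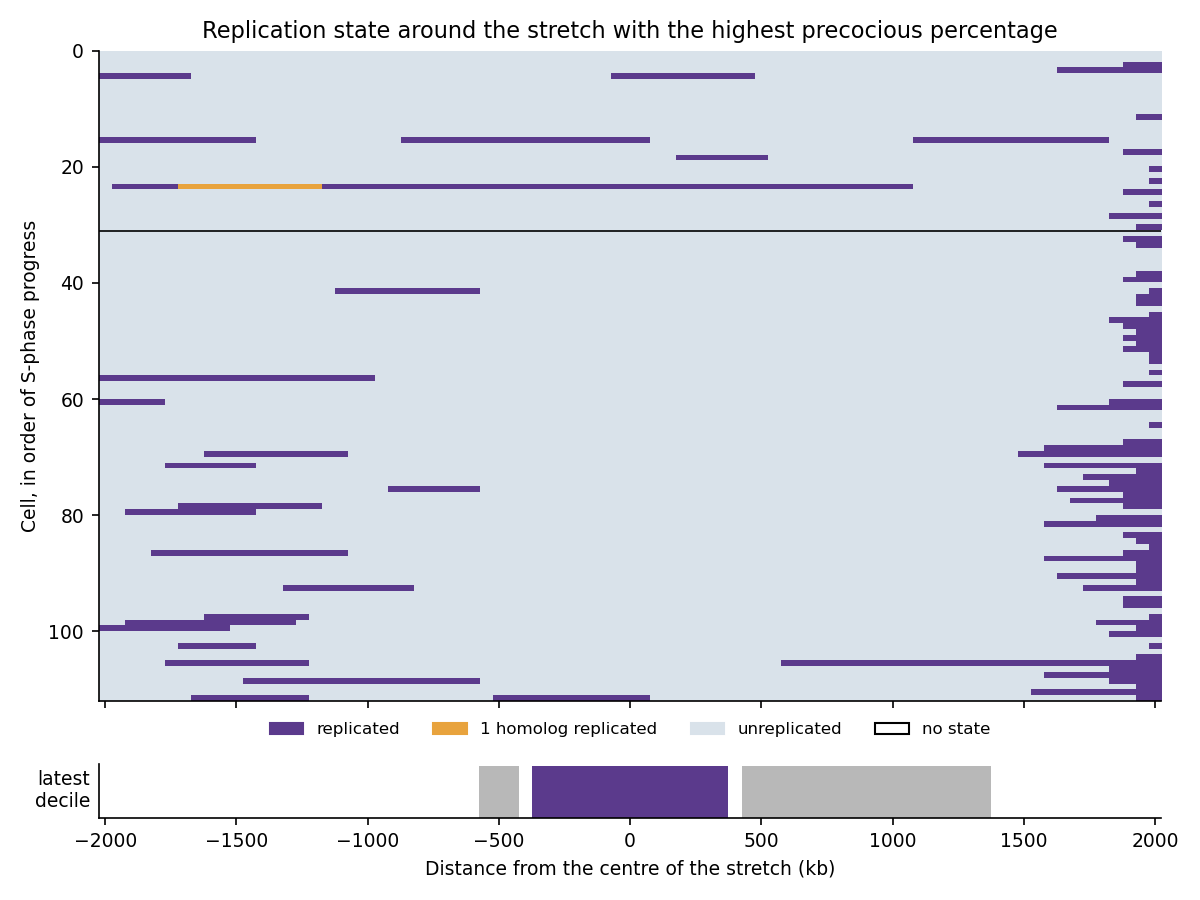
Replication state of each bin within 2000 kb of the centre of the stretch that holds the start of Cntnap2. Each row is 1 of the 112 cells below 70% replicated, ordered by progress from top to bottom, with a line at 50%. Purple is replicated, orange replicated on 1 homolog and light blue unreplicated, and the strip below marks the stretch (purple) and other latest-decile bins (grey). Only 4 cells above the line had replicated bins of the stretch, and 1 of them, diploid H8, had replicated all 15.

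Stretches begun early in 1 line were begun early in the other at close to the share over all stretches. Of the 177 stretches of at least 10 bins, 41 had a replicated bin in at least 1 early haploid cell and 57 in at least 1 early diploid cell, which is 23.2% and 32.2% of all 177. Bins replicated on 1 homolog were counted in the diploid set. The 16 stretches in both sets were 39.02% of the haploid set, beside the 32.2% of all stretches begun in diploid cells. They were 28.1% of the diploid set, beside the 23.2% begun in haploid cells, and 95 stretches were in neither. A total of 53 stretches were begun in exactly 1 early cell, and so could belong to 1 line only, and 3 in 4 cells, the most for any. By chromosome, early cells had replicated 1.55% of the latest-decile bins of chromosome 6, 1.32% of chromosome 8 and 1.27% of chromosome 3, but 0.147% of chromosome 13. Single cells weighed on these values, such as H8 with 93 bins on chromosome 6 and A5 with 66 on chromosome 3. In cells below 70% replicated, chromosomes 6, 8, 3 and 13 had 1.40%, 1.27%, 1.35% and 1.14%, and the highest was chromosome 7 at 1.72%.

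A replicated bin can be reached from an earlier neighbour or lie in a run that starts and ends inside the latest decile. In early cells the 1309 replicated bins, 353 of them replicated on 1 homolog only, lay in 178 runs. Of these, 139 runs extended beyond the latest decile and held a median of 4 of its bins (200 kb). The other 39 runs were isolated within it, with a median of 10 bins (500 kb) and a range of 5 to 27 bins, and held 411 bins. Averaged over the 28 cells with any replicated bin, 31.5% ± 31.05 (SD) of these bins were isolated. Below 70% replicated, 170 of 1091 runs were isolated. The authors' segmentation did not call very short segments, which sets a floor to the length of an isolated run.

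Ends of stretches were replicated slightly more often than their interiors. In early cells, bins within 2 bins of an end were replicated at 0.955% ± 1.04 and bins more than 10 bins inside at 0.786% ± 1.40 (SD, n = 31 cells), a difference of 0.169 ± 1.02 points that was well within the spread over cells. The value was higher at the ends in 21 cells and inside in 7. The ends held 1567 bins and the interiors 546, and 27 and 12 of the 31 cells had any replicated bin there. These counts of cells therefore depend in part on class size. Taking the latest 5% of bins turned the difference to -0.043, and ranking bins by replication state to -0.037. Below 70% replicated the values were 1.64% ± 1.61 and 0.915% ± 1.48 (n = 112), with the end higher in 87 cells. Of these 112 cells, 106 had any replicated bin at the ends and 50 inside. End bins were also ranked earlier, with a median rank of 92.5% against 96.8%, and the part of this in the difference was not tested.

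In diploid cells some bins were called replicated on 1 homolog only. Over all 63 cells, 1650 bins of the latest decile (36.6%) had such a state in at least 1 cell, near the 40.4% of all ranked bins. Per cell, 0.465% ± 1.16 of the latest decile was replicated on 129 only. The corresponding value for Castaneus was 0.264% ± 0.688 (SD, n = 63). The 129 value was higher in 20 cells and the Castaneus value in 11, while 32 cells had none. The difference of 0.202 ± 0.967 points was smaller than the spread over cells, and the authors' limits for the 2 homologs were not symmetric. It fell to 0.120 without cell H4 and to 0.133 without cell G7. The same values over the other bins were 0.543% and 0.343%. Of the 2073 states of this kind, 59.3% came from 5 cells, F11, H4, G7, H8 and H6.

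The copy number scores of these states were then compared. For each cell a relative score was set to 0 at its median score over unreplicated latest-decile bins. It was set to 1 at the median over replicated bins outside the latest decile. A bin with 1 of 2 homologs replicated would by arithmetic lie midway only if fully replicated latest-decile bins also reached 1. In cells below 70% replicated, latest-decile bins replicated on both homologs had a median of 0.625 (2453 values, 55 cells), and replicated bins of haploid cells had 0.678 (3225 values, 49 cells). Both lay below 1, so the midway value does not hold for these bins. Bins replicated on the 129 homolog alone had a median of -0.104 (1323 values, 24 cells), and on the Castaneus homolog alone -0.159 (717 values, 19 cells). Their score was at or below that of the median unreplicated bin in 69.1% and 78.1% of values. Outside the latest decile, states of 1 homolog had medians of 0.559 and 0.471. Unreplicated diploid bins there had a median of 0.210, since the score was set to 0 on latest-decile bins only. States of 1 homolog in the latest decile were not accompanied by a higher copy number score, unlike those in other bins. Per the study's methods, such a state was made by changing the call of the unparsed profile for 1 homolog. It can therefore start from a segment called unreplicated or replicated. In these diploid cells 275251 latest-decile values were unreplicated, beside the 2453 on both homologs. The calling may thus set part of the difference, whose source was not tested.

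**Figure D5:**
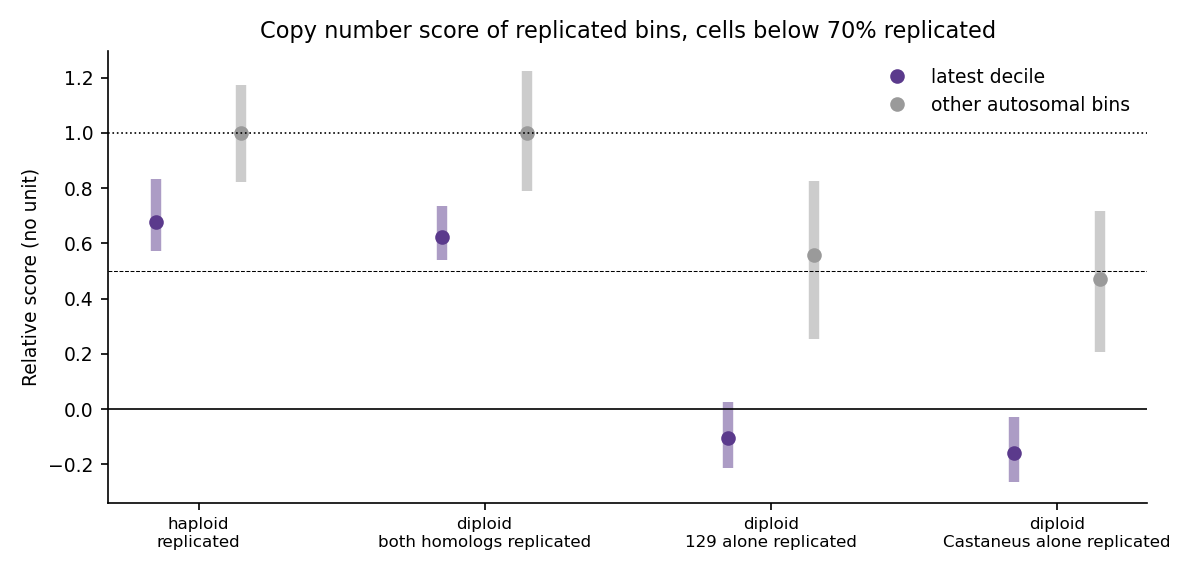
Relative copy number score of bins called replicated in cells below 70% replicated, by line and homolog, for the latest decile (purple) and other autosomal bins (grey). Points are medians over bin values and bars run from the first to the last quartile limit, with lines at 0 (unreplicated latest-decile bins), 0.5 and 1 (replicated bins outside the latest decile). Latest-decile bins replicated on 1 homolog have medians of -0.104 and -0.159, and those replicated on both 0.625.

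This bears on which diploid cells led. F11, at 55.1% progress, had 1.15% of the latest decile replicated on both homologs and 9.22% on 1, and its states of 1 homolog had a median relative score of -0.166. G7 had 1.68% on both and 4.85% on 1, and H8 had 2.48% and 3.41%. Below 70% progress the highest values on both homologs were in E3 (3.92%), C3 (3.83%) and E12 (3.63%), none of which had a bin replicated on 1 homolog only. Their profile contrast was 1.14, 1.05 and 1.16, against a median of 1.46 in diploid cells below 70%, and its part was not tested. Counting only bins replicated on both homologs, the early diploid cells had 0.841% ± 0.931 (SD, n = 14), and diploid cells between 40% and 60% had 0.675% ± 0.882 (n = 45).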

How the data were processed

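Reads of single nuclei were mapped by the authors to mm10 with Bowtie2, filtered, freed of duplicates and counted in 50 kb bins (SAMtools and bedtools are also named in the submitters' processing notes). Per the study's methods, coverage was scaled per cell, divided by G1 and G2 control cells, centred, scaled and smoothed by a running median. These deposited values are a score without unit, to be read only within a cell. The deposited states (1 replicated, 0 unreplicated) were made by the authors by segmenting each profile and splitting it at a threshold, and in diploid cells by changing segments whose parsed reads differed between homologs. Cells removed by the authors and G1 cells were left out. Another 24 columns (8 of scores, 16 of states), from 8 diploid cells, had names that fit no label and were left out too, so the rule was applied to the 138 matched cells.

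Here, 45112 of 49264 autosomal bins had a score in enough cells, and all of these had a state. Members, gene lists and named stretches were chosen with earlier results of these data known. Stretches of at least 10 bins were named if among the 5 latest, the 5 longest or the 5 with the highest precocious percentage, with up to 4 protein-coding genes each, and 1 of the 5 longest is not reported here. Genes came from GENCODE and sequence from GRCm38, whose chromosome ends matched the last bins of all 19 autosomes. The 3 most alike diploid pairs (C1 and G3, C12 and F11, C5 and F7) had r of 0.900 to 0.913 between scores, and no 2 cells were identical. No p-values were computed, since each line counts as 1 sample. Run and stretch counting was tested on simulated data. Python 3.11.15, numpy 2.4.6, pandas 2.3.3 and scipy 1.17.1 were used. Alternatives changed the cells and values behind the ranking, the width of the late class, stretch length, the definition of replicated and the limit for early cells. Other alternatives, chosen after seeing the data, raised the limit to 70%, counted both homologs only, or omitted single cells.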

Additional observations from a re-analysis of the deposited data

How the results depend on the processing

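Of 139 recomputed values, 129 stayed within 1 SD of the value reported, or within 1.5 times for counts and gene density. The SD was over cells, or over bins for GC content. It exceeded the value itself for the precocious percentages and for the line, edge and homolog differences, so the limit is loose. The edge difference had the opposite sign in 2 of 17 alternatives. Some alternatives could not change a value, such as omitting haploid G8 for diploid results. No paired analysis was possible because a well only names a cell and links none across lines. The precocious percentage ranged from 0.424% to 1.43% in haploid and from 0.519% to 1.81% in diploid cells. The haploid value was 1.41% when a score above 0 counted as replicated, where 31 cells counted as early, and 1.43% for cells below 70%. The difference between lines at 40% to 60% had the opposite sign in 7 of 15 alternatives, and was 1.33 with the schedule of diploid cells alone and 1.76 with a score above 0. The cause of these shifts was not tested. Bins replicated in at least 20% of early cells numbered 3 with the haploid schedule, 1 for cells below 70%, and 49 when bins were chosen anew for each cell, where a bin counts only over the cells for which it was a member. The number of stretches was 177 when only those of at least 10 bins were kept, by construction. Gene starts were 1.77 per Mb with the diploid schedule and 1.80 with the latest 20% of bins. The fitted curve of members replicated on progress reached 50% only with the latest 20% of bins, in haploid cells at 88.5% progress. The lack of read numbers per cell leaves counting error in every state unknown.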
